A study of Mus musculus with 19 samples.

Results

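The genes described here encode the translation initiation factors and elongation factors, taken as every gene whose symbol begins with Eif or Eef and whose probe exceeded the scanner's background limit with lung RNA on 4 or more of 19 arrays. The rule gave 66 genes of the 19319 genes tested, 52 initiation factors (Eif) and 14 elongation factors and their modifying enzymes (Eef). Of 72 protein-coding Eif and Eef symbols in the gene table, 66 had a named probe and all 66 passed the filter. Eef1akmt3, Eef1akmt4-ece2, Eif2b3, Eif3j2, Eif4a3l1 and Eif4e1b were not analysed here. In the lung channel, 65 of the 66 were above background on every array, and Eef1a2 was the one member near the limit, on 5 arrays. A symbol prefix groups genes by name, so the set also holds eIF2 alpha kinases, eIF4E binding proteins, lysine methyltransferases and Eif4a3, which is best known from the exon junction complex.

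The study measured lung RNA of male MutaMouse animals (transgenic mouse strain 40.6), a line that carries a bacterial reporter transgene for scoring mutations, on 2-colour Agilent arrays. All mice were 25 weeks old, were gavaged every day for 28 days, and gave part of a lung 3 days after the last dose. Vehicle alone (0 mg/kg/day) went to 5 control mice, and benzo(a)pyrene (BaP) was given at daily doses of 25, 50 or 75 mg/kg to 5, 4 and 5 mice. BaP is a polycyclic aromatic hydrocarbon from combustion whose metabolites bind DNA. The study planned 5 mice for each dose, and the fifth at 50 mg/kg/day was not analysed here. All groups, controls included, carry the transgene, and each array set 1 mouse's lung RNA (Cy5) against the same commercial RNA pool from mouse cell lines (Cy3), with no dye swap. A value below is a log2 ratio of lung over that pool, and a difference is the mean of a dose group minus the mean of the controls.

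Translation begins when eIF2 with GTP brings the initiator tRNA to the small ribosomal subunit, eIF3 holds the assembly together, and eIF4F (the cap binder eIF4E, the scaffold eIF4G and the helicase eIF4A, aided by eIF4B and eIF4H) recruits the mRNA. During elongation eEF1A delivers each aminoacyl-tRNA, the eEF1B complex recharges eEF1A with GTP, and eEF2 moves the ribosome along. Phosphorylation of eIF2 alpha by stress kinases lowers initiation and is undone by a phosphatase whose stress-inducible subunit is Ppp1r15a, and many mRNAs of the translation machinery itself begin with a run of pyrimidines (the 5′ terminal oligopyrimidine motif) that places them under mTORC1 control.

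Windows around annotated start sites are shown because that motif is the sequence feature these genes are known for. RefSeq promoter entries (GRCm38.p6) matched 54 of the 66 members, and none matched for Eef1akmt1, Eef1d, Eef1g, Eif1a, Eif3e, Eif3h, Eif3i, Eif4e3, Eif4ebp1, Eif4ebp3, Eif4g2 and Eif6. Capitals mark the longest tract of at least 8 bases that are each C or T, beginning with C, on the transcribed strand within 50 bases either side of the start. Each line is 30 bases in the direction of transcription, centred on the tract or, where none was found, on the start. The windows are those of the eIF3 genes with a tract and of the members with an unadjusted p under 0.05 at 75 mg/kg/day or in the trend.
Eef1a1, chr9:78481710-78481739, minus strand: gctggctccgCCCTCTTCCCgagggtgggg
Eif3a, chr19:60790644-60790673, minus strand: atcacgtggttCCTTCCTTTCCgtctctgg
Eif3c, chr7:126566388-126566417, minus strand: ccccccaaCCTTTTCCTCTTCCggcgtcgt
Eif3f, chr7:108934403-108934432, plus strand: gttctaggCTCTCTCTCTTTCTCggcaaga
Eif3g, chr9:20898609-20898638, minus strand: ggcaccggaagCCTCTTCTactccggcttc
Eif3k, chr7:28981856-28981885, minus strand: gctgaaagcgCCTTTCCCTTTgccttcctt
Eif3l, chr15:79075216-79075245, plus strand: ttcttcttccgCTCTCTCCCacgggcttct
Eif3m, chr2:105017028-105017057, minus strand: tacggcaccgCTCTCTTTTCCggtcggcgt
Eef1b2, chr1:63176816-63176845, plus strand: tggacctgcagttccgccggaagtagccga
Eif3d, chr15:77970810-77970839, minus strand: gtggtagggccatttacgacagcgctggtc
Eif4a2, chr16:23107453-23107482, plus strand: ccgcggaaaccccgtaggagcagggcggcc
Eif4b, chr15:102073758-102073787, plus strand: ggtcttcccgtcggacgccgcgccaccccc
Eif4g3, chr4:137993440-137993469, plus strand: aaagctccgagcggccgtcctgccggactg

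The first 8 of these windows hold a tract and the other 5 do not, and Eif4g3 has 2 starts listed. The log2 differences at 75 mg/kg/day described below ran from -0.35 (Eef1a1) to 0.065 (Eif3a) among the 8 and from -0.44 (Eif4a2) to 0.37 (Eif4g3) among the 5. The 5 were listed for their p-values and the eIF3 genes of the 8 for their tracts, so these ranges do not compare genes with and without a tract. A tract was found in 23 of 54 members (42.6%), in 8645 of all 27025 genes of the table (32%), in 6 of 11 elongation factors (54.5%), in 17 of 43 initiation factors (39.5%) and in 7 of 10 eIF3 subunits (70%). The match is to letters only, and annotated starts can lie away from the start used in lung. The 23 members with a tract had a median log2 difference at 75 mg/kg/day of -0.013, and the 31 without one had 0.0039. This split leaves out 12 members, among them Eef1d, Eef1g and Eif3e, and counts tracts up to 50 bases from the start, so it does not measure a motif at the first base of the mRNA.

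Lung identity was as labelled: the epithelial markers Sftpc, Sftpb, Sftpa1, Scgb1a1, Ager and Hopx were above background on all 19 arrays. The lung signal cleared background at 19777 to 27279 spots, depending on the array, and the number of arrays limits the precision. The p53 targets Cdkn1a, Gdf15, Mdm2, Phlda3 and Ccng1, taken as a check of exposure, were called higher in 3 of 5 cases at 25 mg/kg/day and in 5 of 5 at 50 and at 75 mg/kg/day. There were 6 slides and 5 scan days, with controls sharing a slide with 25, 50 and 75 mg/kg/day on 4, 3 and 4 slides. Control 5 stood apart in skeletal muscle markers, which is taken up with Eef1a2 below.

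Few of the 66 genes passed the test at any dose. At 25 mg/kg/day limma called 0 of 66 at an adjusted p under 0.05, where it called 0.0518% of all genes. At an unadjusted p under 0.05, 2 members passed there (1 higher, 1 lower), against 7.79% of all genes. At 50 mg/kg/day 1 member was called, the eIF3 subunit Eif3e, lower, against 1.08% of all genes called and 0.336% called lower. At 75 mg/kg/day 3 members were called (Eef1akmt1 higher, Eef1d and Eif4b lower) against 4.15% of all genes (2.64% higher, 1.51% lower), and in the linear dose trend 5 were called (Eef1akmt1 and Eif4g3 higher, Eef1d, Eef1g and Eif4b lower) against 4.64% (2.82% higher, 1.83% lower). The share among the members, 3 or 5 of 66, was near that of all genes. Between 75 and 25 mg/kg/day 0 members were called by limma, against 0.549% of all genes, and 2 higher and 5 lower at an unadjusted p under 0.05, against 6.84% of all genes.

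With the slide as a block, more members passed, as did more of all genes. The counts became 3 lower at 50 mg/kg/day (2.1% of all genes called), 3 higher and 7 lower at 75 mg/kg/day (9.15%), 1 lower between 75 and 25 mg/kg/day (1.52%), and 3 higher and 9 lower in the trend (9%). The calls that the block added at 75 mg/kg/day were Eef1a1, Eef1g, Eif3c, Eif4a2 and Eif5a lower and Eif4e3 and Eif4g3 higher. The genes called lower with the block were the eEF1 genes Eef1a1, Eef1b2, Eef1d and Eef1g, the eIF3 genes Eif3c, Eif3e, Eif3h and Eif3l, the helicase group's Eif4a2 and Eif4b, and Eif5a. No eIF2, eIF2B or eIF2 kinase gene was called in either fit.

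**Figure D1:**
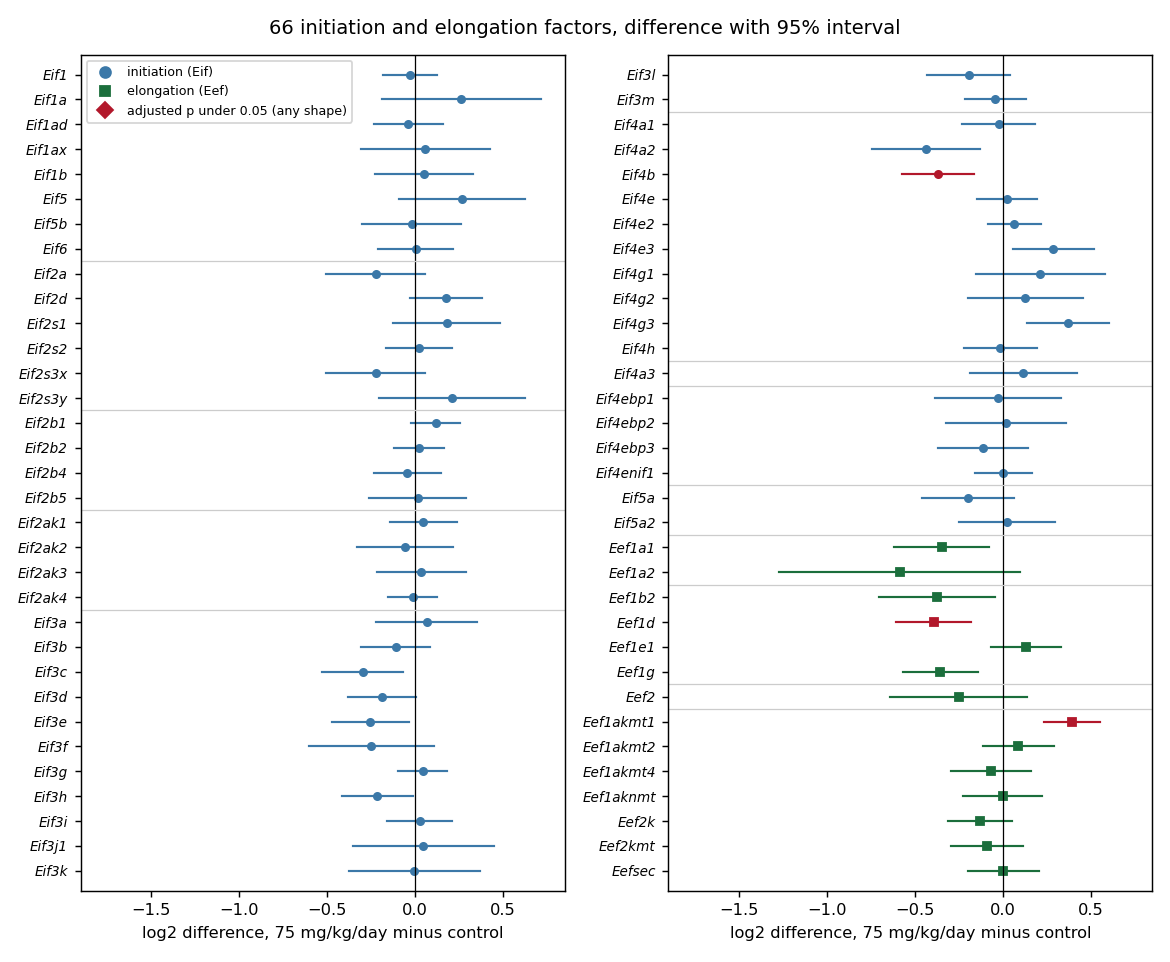
Log2 difference in lung over reference ratio, 75 mg/kg/day (n = 5) minus control (n = 5), for each of the 66 genes with its 95% interval from limma; grey lines separate functional groups. Eef1akmt1 (0.39) is the called gene to the right of 0, and Eef1d (-0.39) and Eif4b (-0.37) are the called genes to the left. Both of the latter lie right of 0 when arrays are only median-centred (0.48 and 0.34), where the all-gene median is 0.35.

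The choice of normalization decided the sign of many of these values. Loess removes a dependence of the ratio on brightness, and the log2 difference at 75 mg/kg/day then had a median of -0.0075 over all genes and of -0.0018 over the 66 members. With each array only centred on its median, the median over all genes was 0.35 at 75 mg/kg/day, 0.14 at 50 and 0.15 at 25, and 60 of the 66 members lay above the all-gene value at 75 mg/kg/day. Every direction below is the one after loess. For called genes and gene groups the value under median centring is given where its sign against 0 turns. Such a value can still lie below the all-gene median of that setting, which was also above 0 in the trend (0.11 per 25 mg/kg/day).

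After loess the elongation genes had lower differences than the initiation factors, mainly through eEF1. Of the 7 genes grouped here as core elongation genes (Eef1a1, Eef1a2, Eef1b2, Eef1d, Eef1e1, Eef1g and Eef2), 6 lay below 0 at 75 mg/kg/day and 1 above, with a median difference of -0.36. The 1 above was Eef1e1, which is in the group by its name, and the 6 below include Eef1a2, which was near the background limit. Medians of the 7 were -0.12 at 25 and -0.21 at 50 mg/kg/day, while the all-gene medians were 0.0077 and -0.0013. Under median centring the 75 mg/kg/day median of the 7 was 0.59, above 0. Of the 7, 1 passed the test at 75 mg/kg/day (Eef1d) and 2 in the trend (Eef1d and Eef1g), all lower. Over all genes 1.51% were called lower at 75 mg/kg/day and 1.83% in the trend.

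Eef1d encodes eEF1B delta, one of the nucleotide exchange subunits that recharge eEF1A. The 5 controls had log2 ratios of -1.0, -0.65, -1.07, -0.79 and -0.57, against -1.13, -0.96, -0.89, -0.86 and -0.81 at 25 mg/kg/day. Eef1d was -1.41, -1.06, -1.05 and -1.05 at 50 mg/kg/day and -1.22, -1.08, -1.35, -1.20 and -1.19 at 75 mg/kg/day. All 5 mice at 75 mg/kg/day lay below all 5 controls, a separation downward that 1.65% of all genes showed, while the lower groups overlapped the controls. The mean went from -0.82 ± 0.22 (SD, n = 5) to -1.21 ± 0.096 (SD, n = 5). Eef1d fell by 0.39 on the log2 scale (SE 0.10, 0.76-fold, 95% interval 0.66 to 0.88, limma adjusted p = 0.033), and its difference was 0.48 (adjusted p = 0.33) under median centring. The trend was -0.14 per 25 mg/kg/day (adjusted p = 0.011), and 0.13 under median centring. Within slides, the mouse at 75 mg/kg/day was lower than the control on 4 of 4 slides, by 0.0098 to 0.57. The 75 mg/kg/day call was lost without control 2, 4 or 5 and without mouse 16, 18 or 19 (adjusted p up to 0.10, difference -0.46 to -0.33). It was also lost under scale normalization, with the mean of all probes, in the lung channel alone and in the deposited table (-0.37, -0.25, -0.30 and -0.21), and the trend was lost in the last pair (-0.11 and -0.080). A dim second probe of Eef1d, above background on 5 arrays, differed by -0.11.

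Eef1g encodes eEF1B gamma, the structural subunit of that complex. Log2 ratios of Eef1g were -1.24, -1.04, -1.48, -1.26 and -0.89 in the controls and -1.40, -1.44, -1.18, -1.28 and -1.23 at 25 mg/kg/day. It was -1.65, -1.39, -1.36 and -1.35 at 50 mg/kg/day and -1.36, -1.43, -1.63, -1.65 and -1.61 at 75 mg/kg/day. Every mouse at 50 and 75 mg/kg/day was below the control mean of -1.18, but control 3 lay among them, so the groups overlapped. Eef1g fell by 0.12 on the log2 scale per 25 mg/kg/day (SE 0.031, limma adjusted p = 0.026), where median centring gave 0.17 (adjusted p = 0.29). The 75 mg/kg/day difference of -0.36 missed the threshold (adjusted p = 0.054) and passed with the slide as a block (adjusted p = 0.032). Within slides it was lower on 3 of 4 at 75 mg/kg/day, and the trend was not called without control 2 or 5 or without mouse 18 or 19 (adjusted p up to 0.072), nor with processed signals, scale normalization, the lung channel alone or the deposited table.

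The other exchange subunit, Eef1b2 (eEF1B alpha), had a control SD of 0.42, wider than those of Eef1d and Eef1g. Its ratios there were -0.93, -1.16, -2.0, -1.52 and -1.19, and at 75 mg/kg/day -1.71, -1.82, -2.07, -1.64 and -1.44. Controls 3 and 4 sat within the range of the mice at 75 mg/kg/day. The difference at 75 mg/kg/day was -0.38 (SE 0.16, adjusted p = 0.22), and without control 3 it was -0.54 (adjusted p = 0.024), a call that rests on leaving out that control. Eef1e1, a scaffold protein of the multi-tRNA synthetase complex that carries an eEF1 name, differed by 0.13 (adjusted p = 0.53).

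**Figure D2:**
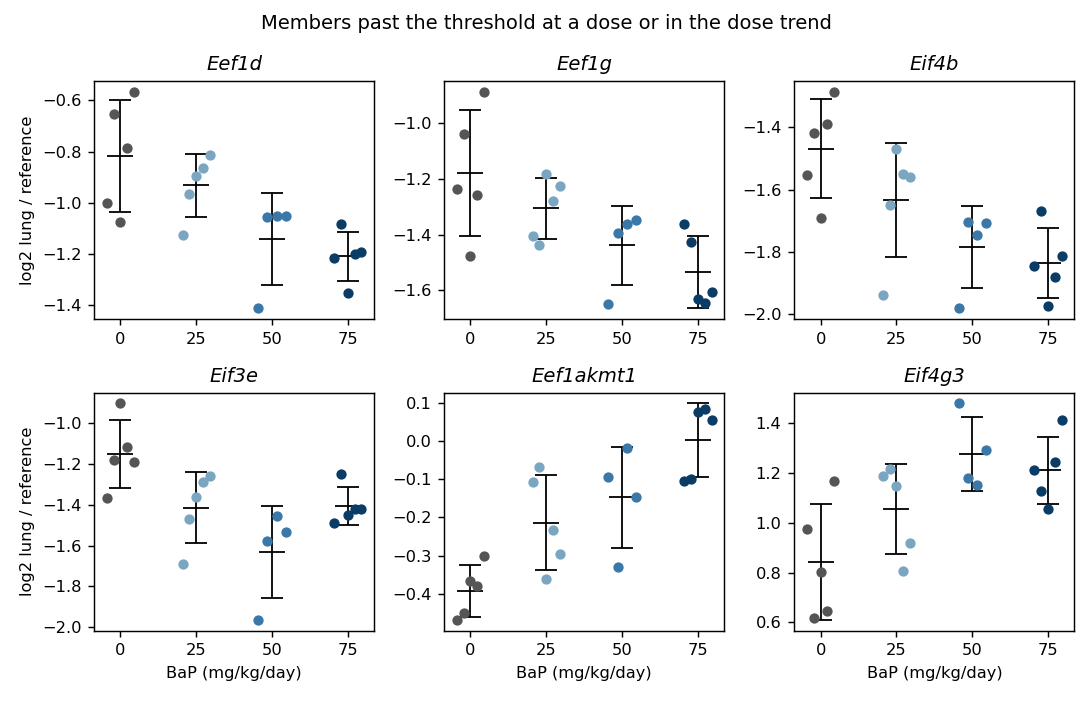
Log2 lung over reference ratio of the 6 genes called at any dose or in the dose trend, against BaP dose; points are mice, and bars give the mean ± SD (n = 5, 5, 4 and 5). All mice at 75 mg/kg/day lie below all controls for Eef1d and above all controls for Eef1akmt1, whereas Eef1g, Eif4b, Eif3e and Eif4g3 overlap the controls there; the falls of Eef1d, Eef1g and Eif4b turn under median centring.

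Eef1a1, the main eEF1A isoform outside muscle and neurons and the brightest member in the lung channel, did not pass the test. The log2 ratio of Eef1a1 was -0.14, -0.081, -0.40, -0.60 and -0.23 in the controls and -0.30, -0.21, -0.10, -0.69 and -0.33 at 25 mg/kg/day. It was -0.31, -0.57, -0.26 and -0.42 at 50 mg/kg/day and -0.69, -0.62, -1.03, -0.45 and -0.40 at 75 mg/kg/day. All 5 mice at 75 mg/kg/day were below the control mean of -0.29, and control 4 lay among them. The difference of -0.35 had an adjusted p of 0.15, and with the slide as a block it was -0.37 (adjusted p = 0.0054), with 4 of 4 slides lower by 0.22 to 0.43. The lung channel alone differed by 0.024 and the reference channel alone by 0.37 (adjusted p = 0.030), although the reference RNA was the same on every array. A second probe of Eef1a1 differed by -0.060. What moved the reference channel was not tested.

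Tested on the reference channel alone, 1 of the 66 members, Eef1a1, was called at 75 mg/kg/day, beside 15 of all 19319 genes. The other core elongation genes were not called there (adjusted p of 0.9997 each). At 75 mg/kg/day all 7 core elongation genes had reference channel differences above 0, from 0.034 to 0.37, with a median of 0.11, against 0.0018 over all genes. The lung channel median of the 7 was -0.20. Among them, Eef1a2 was above background in the reference channel on only 3 arrays. For Eef1d the lung channel differed by -0.30 and the reference channel by 0.090; for Eef1g the values were -0.20 and 0.15, and for Eef2 -0.053 and 0.20. Eif4b differed by -0.38 in the lung channel and by -0.016 in the reference channel, and Eef1akmt1 by 0.34 and -0.051. Eef1d was not called in the lung channel alone.

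**Figure D3:**
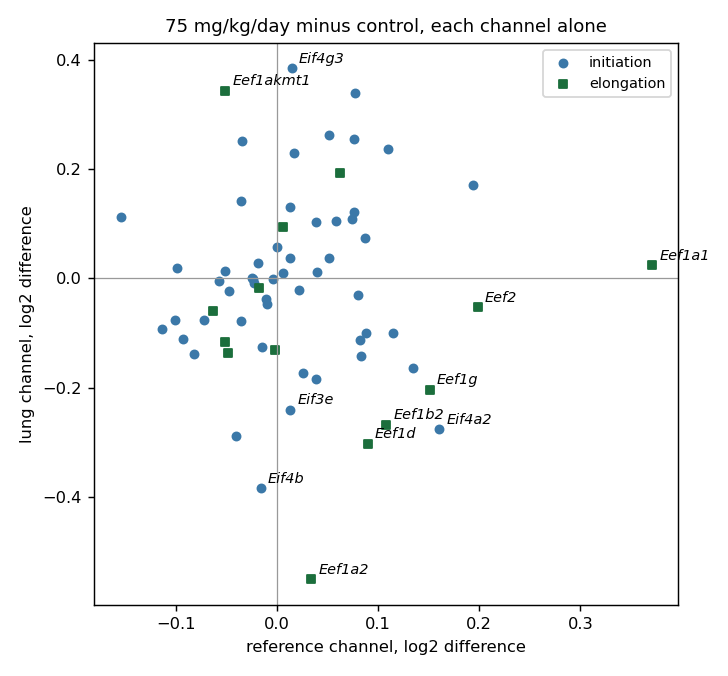
Log2 difference at 75 mg/kg/day minus control in the lung channel (vertical) against the reference channel (horizontal) for the 66 genes, after loess and quantile normalization of average brightness between arrays. Eef1a1 lies far to the right (0.37) with its lung channel at 0.024, whereas Eif4b, Eef1akmt1 and Eif4g3 lie close to 0 on the reference axis.

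Eef2, the translocase, had control ratios of -1.42 ± 0.41 (SD, n = 5) and -1.68 ± 0.22 (SD, n = 5) at 75 mg/kg/day, a difference of -0.25 (95% interval -0.64 to 0.14, adjusted p = 0.53). Its inhibitory kinase Eef2k differed by -0.13 (adjusted p = 0.49). Of the 7 modifying and accessory genes (Eef2k, Eef2kmt, Eefsec, Eef1akmt1, Eef1akmt2, Eef1akmt4 and Eef1aknmt), 1 was called higher at 75 mg/kg/day, against 2.64% of all genes. The median of the 7 at that dose was 0.000005.

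That gene was Eef1akmt1, which encodes a lysine methyltransferase of eEF1A. Eef1akmt1 had log2 ratios of -0.47, -0.45, -0.36, -0.38 and -0.30 in the controls and -0.11, -0.069, -0.36, -0.23 and -0.29 at 25 mg/kg/day. It was -0.095, -0.33, -0.018 and -0.15 at 50 mg/kg/day and -0.11, -0.10, 0.076, 0.083 and 0.055 at 75 mg/kg/day. Every dosed mouse was above the control mean of -0.39 ± 0.068 (SD, n = 5), and at 75 mg/kg/day all 5 lay above all 5 controls, a separation upward that 3.05% of all genes showed. Eef1akmt1 rose by 0.39 on the log2 scale at 75 mg/kg/day (SE 0.076, 1.31-fold, 95% interval 1.18 to 1.47, limma adjusted p = 0.0048) and by 0.13 per 25 mg/kg/day (adjusted p = 0.0026). The differences at 25 and 50 mg/kg/day, 0.18 and 0.25, were not called (adjusted p = 0.58 and 0.17). The rise was present on 4 of 4 slides at 75 mg/kg/day (0.26 to 0.53), and both calls held without any 1 of the 19 arrays. Under median centring the 75 mg/kg/day difference was 0.97 (adjusted p = 0.056), and with the scanner software's processed signals both calls were lost (0.21, adjusted p = 0.086, and 0.060 per 25 mg/kg/day, adjusted p = 0.12).

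In the eIF4 group, 1 of 10 genes was called at 75 mg/kg/day (Eif4b, lower). In the trend 2 were called, in opposite directions (Eif4b lower, Eif4g3 higher). Over all genes 4.15% were called at 75 mg/kg/day and 4.64% in the trend. Eif4b encodes the cofactor that stimulates the eIF4A helicase. Measured as a log2 ratio, Eif4b stood at -1.55, -1.42, -1.69, -1.39 and -1.29 in the controls and -1.94, -1.65, -1.47, -1.55 and -1.56 at 25 mg/kg/day. It was -1.98, -1.71, -1.74 and -1.71 at 50 mg/kg/day and -1.85, -1.67, -1.97, -1.88 and -1.81 at 75 mg/kg/day. All mice at 50 mg/kg/day were below all controls, as 1.96% of all genes were, and at 75 mg/kg/day mouse 17 overlapped control 3. Eif4b fell by 0.37 at 75 mg/kg/day (SE 0.096, 0.77-fold, 95% interval 0.67 to 0.89, limma adjusted p = 0.035) and by 0.12 per 25 mg/kg/day (adjusted p = 0.016), and these values were 0.34 and 0.090 (adjusted p = 0.44 and 0.51) under median centring. Its other probes differed by -0.31 and -0.22. The 75 mg/kg/day call was lost without control 2, 4 or 5 or mouse 16, 18 or 19 (adjusted p up to 0.11), whereas the trend stayed under the threshold without any 1 array; scale normalization ended both calls. Within slides Eif4b was lower on 3 of 4 at 75 mg/kg/day and on 3 of 3 at 50 mg/kg/day.

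Eif4g3, one of the eIF4G scaffolds that link the cap binder to the ribosome, was the other. Log2 ratios of Eif4g3 were 0.98, 0.62, 0.80, 0.65 and 1.17 in the controls and 1.19, 1.22, 1.15, 0.81 and 0.92 at 25 mg/kg/day. It was 1.48, 1.18, 1.15 and 1.29 at 50 mg/kg/day and 1.21, 1.13, 1.06, 1.24 and 1.41 at 75 mg/kg/day. Control 5 overlapped the dosed mice, and the groups at 50 and 75 mg/kg/day overlapped each other. Eif4g3 rose by 0.13 per 25 mg/kg/day (SE 0.037, limma adjusted p = 0.043), while the differences of 0.43 at 50 and 0.37 at 75 mg/kg/day missed the threshold (adjusted p = 0.088 and 0.069). The 75 mg/kg/day difference was called under median centring (1.035, adjusted p = 0.043), where the all-gene median was 0.35, and in the lung channel alone (0.38, adjusted p = 0.016). The trend was called in 7 of the 19 fits that left out 1 array. It was lost without control 1, 2, 3 or 4, mouse 9, 10, 13, 14, 15, 16, 19 or 20, with an adjusted p up to 0.12 and a slope of 0.11 to 0.15, and with processed signals, scale normalization, the deposited table, no filter, the mean of all probes or array weights. All shared slides had the dosed mouse higher (4, 3 and 4 slides), and a second probe differed by 0.19 at 75 mg/kg/day.

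The helicases and cap binders differed within their families without passing the test. Eif4a2 had ratios of 1.01, 0.33, 0.056, 0.44 and 0.51 in the controls and 0.014, -0.16, -0.14, 0.18 and 0.25 at 75 mg/kg/day, overlapping at control 3. Its difference of -0.44 (SE 0.15, adjusted p = 0.11) was 0.33 under median centring, and passed with the slide as a block (adjusted p = 0.018). Eif4a1 differed by -0.023 and Eif4a3 by 0.12 (adjusted p = 0.94 and 0.74). Among cap binders Eif4e3 differed by 0.29 (adjusted p = 0.17), Eif4e2 by 0.065 and Eif4e by 0.024, each at 75 mg/kg/day. The scaffold Eif4g1 differed by 0.21 (adjusted p = 0.58). Eif4g2, which encodes an eIF4G-like protein without the cap binder site, differed by 0.52 at 50 mg/kg/day (adjusted p = 0.16) and by 0.13 at 75 mg/kg/day (adjusted p = 0.74), and without control 1 the 50 mg/kg/day value was 0.66 (adjusted p = 0.029). The Eif4ebp genes, whose products are repressors released by mTORC1, spanned -0.11 (Eif4ebp3) to 0.020 (Eif4ebp2) at 75 mg/kg/day, with Eif4ebp1 at -0.027. Eif4enif1, grouped with them here but not such a repressor, differed by 0.0030, and 0 of these 4 were called.

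At 50 mg/kg/day limma called 1 of 13 measured eIF3 genes (1.08% of all genes), with 4 lower and 0 higher at an unadjusted p under 0.05. For 75 mg/kg/day these counts were 0 called (4.15% of all genes), 3 lower and 0 higher. Of all 19319 genes, 1170 were lower and 1285 higher at that unadjusted p at 50 mg/kg/day, and 1509 and 1830 at 75 mg/kg/day. Differences below 0 were found for 10 of 13 at 50 mg/kg/day (median -0.19) and 9 of 13 at 75 mg/kg/day (median -0.11), beside 9719 and 10034 of the 19319 genes tested. Under median centring 10 of 13 at 50 and 13 of 13 at 75 mg/kg/day lay above 0, where the all-gene medians were 0.14 and 0.35. The single call was Eif3e, a PCI-domain subunit of the complex. For Eif3e the log2 ratio was -1.37, -1.18, -0.91, -1.12 and -1.19 in the controls and -1.69, -1.47, -1.36, -1.29 and -1.26 at 25 mg/kg/day. It was -1.96, -1.58, -1.46 and -1.53 at 50 mg/kg/day and -1.49, -1.25, -1.45, -1.42 and -1.42 at 75 mg/kg/day. All 4 mice at 50 mg/kg/day lay below all controls, as 1.96% of all genes did. The 75 mg/kg/day group did not go lower than the 50 mg/kg/day group. Eif3e fell by 0.48 at 50 mg/kg/day (SE 0.11, 0.72-fold, 95% interval 0.61 to 0.84, limma adjusted p = 0.042), and differed by -0.26 at 25 and -0.25 at 75 mg/kg/day (adjusted p = 0.56 and 0.21). Of the 9 called values of members this one was kept least often, in 5 of 19 fits that left out 1 array. It was lost without control 2, 3, 4 or 5, mouse 7, 8, 10, 12, 13, 15, 16, 18, 19 or 20 (adjusted p up to 0.14, difference -0.54 to -0.37), and under scale normalization, median centring, no filter, the mean of all probes, array weights or the lung channel alone. Every shared slide had the dosed mouse lower (4, 3 and 4 slides). Eif3c and Eif3l, named after their values were seen, passed at 50 mg/kg/day with the slide as a block (-0.36 and -0.35, adjusted p = 0.024 and 0.033). Other probes of Eif3c differed by 0.015, 0.018 and -0.22 at 50 mg/kg/day without the block, where the probe used differed by -0.34.

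None of the genes for eIF2 and its recycling passed the test at any dose. Of 6 genes for eIF2 and its partners, 4 were above and 2 below 0 at 75 mg/kg/day, and the eIF2 alpha subunit Eif2s1 differed by 0.18 (95% interval -0.13 to 0.48, adjusted p = 0.58). The X-linked eIF2 gamma gene Eif2s3x differed by -0.22 and its Y-linked copy Eif2s3y by 0.21 (adjusted p = 0.42 and 0.64), and with the scanner software's processed signals Eif2s3x was called lower (-0.35, adjusted p = 0.0054). The 4 measured eIF2B genes, which reload eIF2 with GTP, ranged from -0.043 to 0.12. The eIF2 alpha kinases lay close to 0 at 75 mg/kg/day: 0.047 for the heme-regulated kinase Eif2ak1, -0.056 for Eif2ak2 (PKR), 0.035 for Eif2ak3 (PERK) and -0.013 for Eif2ak4 (GCN2). The widest of their 95% intervals, that of Eif2ak2, ran from -0.33 to 0.22. Eif5, the GTPase activator of eIF2, differed by 0.27 and Eif1a by 0.26 (adjusted p = 0.46 and 0.58), and Eif1ax by 0.058. Under median centring limma called Eif5 higher at 75 mg/kg/day (0.94, adjusted p = 0.026) and in the trend (0.30, adjusted p = 0.015). The all-gene medians in that setting were 0.35 and 0.11. Eif5a, the factor that carries hypusine, differed by -0.20 (adjusted p = 0.45) and its paralog Eif5a2 by 0.024. A second probe of Eif5a differed by 0.093.

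Among genes that act with these factors, 2 on the list of eIF2 phosphatase and kinase partners were called, in opposite directions. At 75 mg/kg/day 2.64% of all genes were called higher and 1.51% lower. Of 9 partner genes measured, Ppp1r15a (GADD34), which brings the phosphatase to eIF2 alpha and is also induced by DNA damage, rose by 0.54 at 75 mg/kg/day (SE 0.12, limma adjusted p = 0.015). The Ppp1r15a call held without any 1 array and under median centring (1.08, adjusted p = 0.020). Trib3, a pseudokinase target of Atf4, fell by 0.53 at 50 mg/kg/day and by 0.45 at 75 mg/kg/day (adjusted p = 0.025 and 0.017); at 75 mg/kg/day it was 0.16 under median centring, and the call was lost without mouse 16 or 18 (adjusted p up to 0.056). Atf4, Ddit3 and Dnajc3 differed by 0.075, 0.28 and 0.28 (adjusted p = 0.75, 0.16 and 0.22). Of 9 termination and recycling genes, 13 genes of mTORC1 and MNK signalling, 11 of poly(A) and cap partners and 9 mitochondrial factors, 0 were called by limma in any comparison with control. At an unadjusted p under 0.05 at 75 mg/kg/day, 1, 0, 0 and 3 of them were higher and 0 lower, beside 1830 higher and 1509 lower of all 19319 genes.

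The median over the 52 initiation factors stayed near 0 while that over the 14 elongation genes was lower. At 25, 50 and 75 mg/kg/day the initiation medians were -0.0032, 0.0026 and 0.0085, and the elongation medians -0.047, -0.11 and -0.11. Per mouse, the elongation median ran from -0.068 to 0.075 in the controls and from -0.17 to -0.087 at 75 mg/kg/day, so those groups did not overlap. The initiation median ran from -0.051 to 0.063 in the controls and from -0.038 to 0.018 at 75 mg/kg/day. The core elongation genes overlapped, from -0.30 to 0.25 in the controls and from -0.57 to -0.24 at 75 mg/kg/day. Under median centring both class medians at 75 mg/kg/day were above 0, 0.67 for initiation and 0.53 for elongation.

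Ribosomal protein genes, the other large part of the translation machinery, are given for comparison. After loess, of 77, 76 lay below 0 at 75 mg/kg/day with a median of -0.47, and 47 were called lower (1.51% of all genes). Under median centring all 77 lay above 0 and 0 were called. Their reference channel was above 0 in 69 of 77, with a median of 0.16, and their lung channel alone gave a median of -0.30 with 18 called lower. Beside these results, 4 of 5 markers of B cells lay below 0 after loess and 1 above, with a median of -0.49 at 75 mg/kg/day. Per mouse the median ran from -0.14 to 0.30 in the controls and from -0.69 to -0.20 at 75 mg/kg/day. Against 1.51% of all genes, 2 of the 5 were called lower (Blnk and Cd79b). Under median centring these were at 0.18 and 0.11, above 0 but below the all-gene median of 0.35. Both calls were lost without control 4 or mouse 16 or 18 (adjusted p up to 0.090), and that of Cd79b also without control 5 or mouse 20. The part of B cells in the elongation values was not tested. Other cell marker lists at 75 mg/kg/day were also mostly below 0. These were lung epithelium (5 of 6, median -0.24), skeletal muscle (10 of 10, -1.53), cardiac muscle (6 of 6, -0.94) and cycling cells (3 of 4, -0.16). Neuron markers had 1 of 2 below 0 (median 0.18), and 0 genes of these lists were called at that dose. In whole lung RNA, fewer cells of a type and less RNA per cell cannot be told apart.

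**Figure D4:**
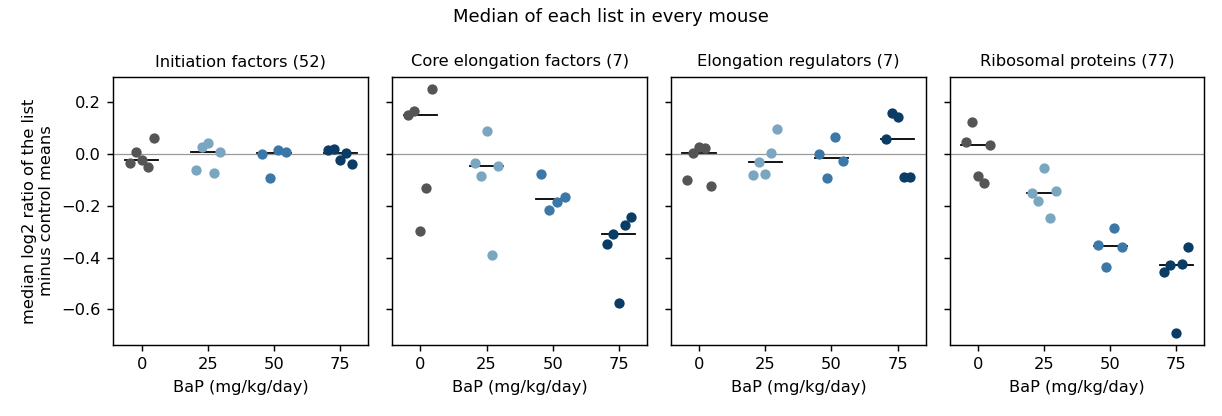
Median log2 ratio of each gene list in every mouse, minus the control mean of each gene, against BaP dose; points are mice and lines are group medians. Initiation factors stay between -0.093 and 0.063, while at 75 mg/kg/day core elongation genes run from -0.57 to -0.24 and ribosomal protein genes from -0.69 to -0.36; under median centring both of these medians are above 0 (0.59 and 0.47).

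Against the cell line reference, the controls had the highest ratios for Eif2s3y (1.46 ± 0.44, SD, n = 5), Eif4e3 (1.16 ± 0.16) and Eif4g3 (0.84 ± 0.23). The lowest were Eif4ebp1 (-2.15 ± 0.23), Eif2s1 (-1.61 ± 0.21), Eef1akmt4, Eif1ax and Eif4b (-1.47 ± 0.16). These set lung against cultured cells gene by gene, and a dye effect of a probe cannot be told apart from them.

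Eef1a2, the eEF1A isoform of muscle and neurons, was above background in 2 controls, 0 mice at 25, 2 at 50 and 1 at 75 mg/kg/day. Eef1a2 had log2 ratios of 0.17, 0.032, 0.24, 0.54 and 2.35 in the controls and -0.046, -0.11, 0.048, 0.12 and 0.099 at 25 mg/kg/day. It was 0.066, 1.34, 0.047 and 0.28 at 50 mg/kg/day and 0.024, 0.0022, -0.078, 0.15 and 0.31 at 75 mg/kg/day. Control 5 and mouse 13 stood above all others. The skeletal muscle markers (10 of 11 measured) had a median ratio of 5.53 in control 5 and of -0.81 to 0.29 elsewhere, and the cardiac markers (6 of 7 measured) had 4.30 in mouse 13, 4.29 in control 4 and 3.17 in mouse 20. The fifth array with Eef1a2 above background, mouse 15, had -0.37 and 1.65, while mouse 14 and control 1 had higher cardiac medians (2.48 and 2.37) with Eef1a2 not above background. Of 5 neuron markers 2 were measured, with a median of 0.21 to 0.72 per mouse; Stmn2 was called higher in the trend (0.16 per 25 mg/kg/day, adjusted p = 0.037) and Tubb3 was not (adjusted p = 0.44). The part of such tissue in Eef1a2 was not tested. At 25 mg/kg/day Eef1a2 was not well above background on any array, and among the 5 controls it was so on 2. The measured difference of -0.64 (adjusted p = 0.66) therefore holds values near background on both sides. It was -0.22 without control 5 (adjusted p = 0.76). The 75 mg/kg/day difference of -0.58 (adjusted p = 0.38) was -0.16 without control 5 (adjusted p = 0.72), and the 50 mg/kg/day difference went from -0.23 to 0.19 without that control.

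**Figure D5:**
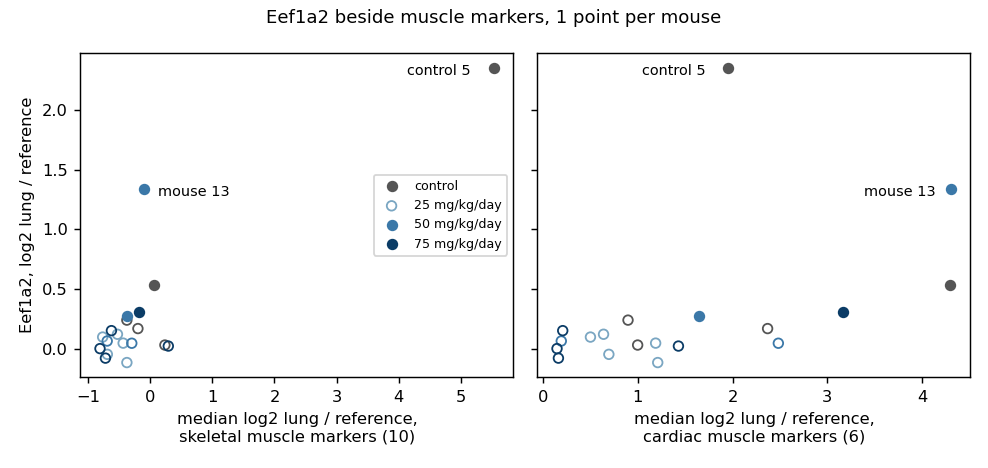
Log2 lung over reference ratio of Eef1a2 against the median ratio of skeletal (left) and cardiac (right) muscle markers, 1 point per mouse; filled points are arrays with Eef1a2 well above background. Control 5 (2.35) is high with skeletal markers at 5.53, and mouse 13 (1.34) is high with cardiac markers at 4.30.

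Of the 34 members with several probes past the filter, 18 had all probes on the same side of 0 at 75 mg/kg/day. Near-identical relatives (Eif3j1 and Eif3j2, Eif4a1 and Eif4a2, Eif1a and Eif1ax) may share a probe, which was not tested.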

How the data were processed

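Lung RNA of 19 mice was analysed, grouped by the dose in the labels, 1 mouse per array. Spot intensities were deposited as Feature Extraction 10.7.3.1 output, per the file headers, with median spot and background brightness in both channels (45018 spots). The deposited table holds log2 ratios of lung over reference, found by setting each column against loess ratios of its array (r 0.995 to 0.998). Its column medians were -0.053 to -0.033, and how it was centred is unknown. It served as an alternative.

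Background was corrected with normexp (offset 50, which compresses dim folds) and ratios by loess in limma 3.58.1 (R 4.3.3). Outlier spots (0.29%) were left out, and 0 were saturated. Of 41174 probes 23374 (56.77%) were named through RefSeq genes of GRCm38.p6 by accession. Each gene was represented by its probe of highest mean lung intensity. limma was fitted on all 19319 genes, with p-values adjusted by Benjamini-Hochberg and a threshold of 0.05, and was tested on simulated data. In the channel fits, brightness was scaled between arrays after loess.

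Members and lists were chosen with earlier results of these data known. Genes named were those called, all Eef genes, the 5 largest differences each way at 75 mg/kg/day, the 5 highest and lowest control ratios, and paralog groups. The eIF3 subunits and Eif4enif1 were added afterwards.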

Additional observations from a re-analysis of the deposited data

Results flagged for a closer look

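In 10 of 160 groups of the 40 genes named by rule, the gap between 1 mouse and the nearest other, as a share of the group's range, passed Dixon's 95% critical value, which chance passes in about 1 in 20 groups. Among the controls these were Eef1a2 in control 5 (2.35, others 0.032 to 0.54) and Eif1ax in control 1 (-2.20, others -1.49 to -1.26). At 25 mg/kg/day they were Eef1e1 in mouse 9 (-1.53, others -1.17 to -1.07) and Eif1a in mouse 7 (-1.69, others -0.37 to -0.071). At 50 mg/kg/day 4 of the 5 fell on mouse 12, which was lowest for Eef1d (-1.41, others -1.06 to -1.05), Eef1g (-1.65, others -1.39 to -1.35) and Eif4b (-1.98, others -1.74 to -1.71) and highest for Eef2kmt (-0.14, others -0.52 to -0.49). Eif2ak2 was highest in mouse 15 (-0.042, others -0.23 to -0.21). At 75 mg/kg/day Eif3e was highest in mouse 17 (-1.25, others -1.49 to -1.42).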

How the results depend on the processing

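Counts called at 50 mg/kg/day were 0 under median centring, scale normalization, either channel alone, no filter, the mean of all probes or array weights, and 3 with the slide as a block. Over all genes, these settings called 9, 88, 95 (lung channel), 0 (reference channel), 178, 211, 212 and, with the block, 406. At 75 mg/kg/day the member counts were 5 with the software's processed signals (0 higher), 1 under scale normalization or in the reference channel, 6 with array weights and 10 with the block. Over all genes they were 1347, 538 (scale normalization), 15 (reference channel), 1098 and 1767. Under median centring the 75 mg/kg/day calls of Eef1akmt1, Eef1d and Eif4b were lost. Eif5 and Eif4g3 were called higher there, beside 529 of all genes called. Between 75 and 25 mg/kg/day the block gave 1 member, beside 293 of all genes. In the trend the member counts were 2 under scale normalization, 3 in the lung channel or the deposited table, 1 in the reference channel and 12 with the block. Over all genes they were 639, 726 (lung channel), 827 (deposited table), 27 and 1738. Leaving out 1 array gave 0 to 0 members at 25, 0 to 2 at 50, 1 to 6 at 75, 0 to 0 for 75 against 25 mg/kg/day and 3 to 6 in the trend. Over all genes those fits called 3 to 13, 75 to 214, 448 to 978, 47 to 118 and 586 to 1039. Initiation medians under median centring were 0.27, 0.29 and 0.67 at 25, 50 and 75 mg/kg/day, 0.062 at 25 under scale normalization and -0.088 at 50 with processed signals. Elongation medians under median centring were 0.21, 0.15 and 0.53, in the reference channel 0.021, 0.048 and 0.020, and -0.039 at 50 in the lung channel. Leaving out 1 array gave initiation medians of -0.018 to 0.025, -0.026 to 0.016 and -0.015 to 0.017, and elongation medians of -0.076 to -0.034, -0.13 to -0.059 and -0.14 to -0.10. Median centring changed the sign against 0 of Eef1d (75: 0.48, trend 0.13), Eif4b (75: 0.34, trend 0.090) and the Eef1g trend (0.17). The all-gene medians in that setting were 0.35 at 75 mg/kg/day and 0.11 in the trend, so Eif4b stayed below them. The reference channel carries the same RNA on every array, though its normalization uses both channels. Alone, it had the opposite sign for Eef1a1 (75: 0.37, trend 0.11), Eef1akmt1 (-0.051, -0.012), Eef1d (0.090, 0.027), Eef1g (trend 0.052), Eif3e (50: 0.021), Eif4b (trend 5.7e-06) and Eif4g3 (trend -0.0031). The cause was not tested. No paired analysis was possible because each mouse has its own number and none is shared between groups; slides, which hold mice of several groups, were used as the block.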
